A study of Mus musculus with 16 samples.

Results

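Expression of 33 genes for surface receptors, signalling proteins and transcription factors of mature B cells was followed here in mixed leukocytes of spleen and bone marrow. Each library listed 49585 genes. The 33 were a list of symbols for follicular and marginal zone B cell genes, with no immunoglobulin and no MHC class II gene, and each was found by its Ensembl identifier. In the spleen, 14 of the 33 were lower in mice given a virus for the activating receptor hM3Dq than in the mCherry controls, and 1 was higher. Over all genes tested there, 4.57% were called lower and 3.48% higher. The genes for the complement receptor CD21 (Cr2), the IgE receptor CD23 (Fcer2a), CD20 (Ms4a1) and the scaffold BANK1 were among the 14, while neither of the genes for the signalling chains of the B cell receptor, Cd79a and Cd79b, passed the test. In bone marrow, 1 of the 33 was called, Fcer2a, which was lower, where 1.7% of all genes tested were lower and 3.04% higher. A test of whether the hM3Dq effect differed between the tissues called 0 of the 33.

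A B cell senses antigen through a membrane immunoglobulin that signals by way of CD79A and CD79B, whose phosphorylation by kinases of the Src family is passed on through BTK, BLNK and phosphoinositide 3-kinase. The strength of that signal is raised by a coreceptor complex that holds CD21 and CD81 and lowered by inhibitory receptors such as CD22 and CD72. Survival in the periphery depends on the BAFF receptor, help from T cells arrives through CD40, and the marginal zone B cells of the spleen, rich in CD21 and poor in CD23, need NOTCH2, whereas follicular B cells carry CD23.

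CD45+ cells, a gate that takes leukocytes of every kind, were obtained from bone marrow (BM) and spleen (SP) of 12-week Dbh-Cre mice on the C57BL/6J strain, and their polyA RNA was sequenced. AAV-DIO-hM3Dq-mCherry had been injected on both sides into the region that the labels call VLM, or AAV-DIO-mCherry for the controls. DIO vectors are expressed where Cre is present, here in cells with an active Dbh gene (dopamine beta-hydroxylase, an enzyme of noradrenaline synthesis), and hM3Dq is an engineered receptor that is switched on by clozapine N-oxide (CNO). Both virus groups carried Cre, received a virus and were given CNO, and the cells were taken 4 h later, so every comparison of viruses is between CNO-treated mice. Each of the 4 groups had 4 libraries, numbered 1 to 4 for mCherry and 5 to 8 for hM3Dq, described as biological replicates.

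Expression is given as FPKM, fragments scaled to exon length and to the library's assigned fragments, as the authors deposited it, and groups are given as mean ± SD (n = 4). Differences are log2 changes ± SE from limma on log2(FPKM + 0.1) after scaling for library composition, a scale that understates the change of low genes. A gene was called at a Benjamini-Hochberg adjusted p under 0.05 over all genes tested, two-sided. Libraries held 11.34 to 16.96 megafragments assigned to genes, and all 33 genes passed the filter of 10 reads in 4 libraries in every comparison. Ptprc, which encodes CD45, the marker of the gate, stood at 86.9 to 93.5 FPKM in the mCherry spleen and 66.2 to 81.5 in the hM3Dq spleen, without overlap, and it was called lower (-0.34 ± 0.07, adjusted p = 0.0298); its part in the members' changes was not tested. In marrow it stood at 33.5 to 37.2 and 27.8 to 44.8 (-0.15 ± 0.13, adjusted p = 0.524). Spleen hM3Dq replicate 6 stood apart, with 0.133% of its reads from haemoglobin genes where the other 3 libraries of its group had 1.17% to 1.33%. Spleen mCherry replicate 2 had 0.569%, below the other 3 of its group at 1.30% to 1.68%, and differed most from them. Marrow hM3Dq replicates 5 and 6 had 0.564% and 0.391%, below the other marrow libraries at 1.34% to 2.84%. Without spleen replicate 6, 14 members were lower and 0 higher, and without spleen mCherry replicate 2, 13 and 0. Over all genes tested, those fits called 497 lower and 368 higher, and 370 and 365, against 781 and 594 with all 8 spleen libraries. Without marrow replicate 5 or 6 in turn, 2 or 1 members were lower and 0 higher. Over all genes, 279 or 91 were then lower and 418 or 236 higher, against 273 and 489 with all 8 marrow libraries.

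The levels of the 33 genes in the mCherry spleen spanned from Cd79a at 416 ± 30.6 FPKM to Fcrl5 at 8.67 ± 2.11. Cd79b followed at 339.6 ± 26.8, and the libraries of Cd79a, Cd79b and the third gene in the order, Fcmr (180.5 ± 21.6), did not overlap one another. Further down the order most neighbours overlapped between libraries: Ms4a1 at 85.3 ± 6.63, Fcer2a at 82.6 ± 13.0, Blk at 71.1 ± 5.72 and Fcrla at 67.5 ± 2.98 could not be ranked against the next gene. Cd40 (11.5 ± 1.44) and Cd86 (10.2 ± 1.59) were near the bottom.

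In mCherry mice 32 of the 33 genes were higher in spleen than in marrow, where 34% of all 16943 genes tested were called higher in spleen and 35.3% lower. In 32 members the spleen libraries lay wholly above the marrow libraries in FPKM, where 44.1% of all genes did. The members' median log2 difference was 2.23, against 0.00 over all genes. Cr2 had the widest gap, with spleen FPKM of 61.7, 45.9, 52.8 and 62.7 against marrow FPKM of 1.09, 0.919, 0.560 and 1.01, a 47.4-fold difference (5.57 ± 0.19, adjusted p = 7.44e-08). Fcrl5 (4.72 ± 0.24) and Dtx1 (4.59 ± 0.18) came next. Fcrl5, a gene of the Fc receptor-like family, rested on only 4 to 13 reads a library in the mCherry marrow. It passed the filter through its spleen libraries, at 335 to 499 reads. Spib (0.80 ± 0.20), Notch2 (0.40 ± 0.09) and Pik3ap1 (0.39 ± 0.10) had the smallest called differences. Btk was the gene not called, at 32.8 ± 2.31 FPKM in spleen and 27.5 ± 2.07 in marrow (-0.03 ± 0.07, adjusted p = 0.702); without composition scaling, which moved the median of all genes to 0.27, it was 0.25. A bulk library cannot tell fewer B cells from less RNA per B cell, here or in any comparison that follows.

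**Figure D1:**
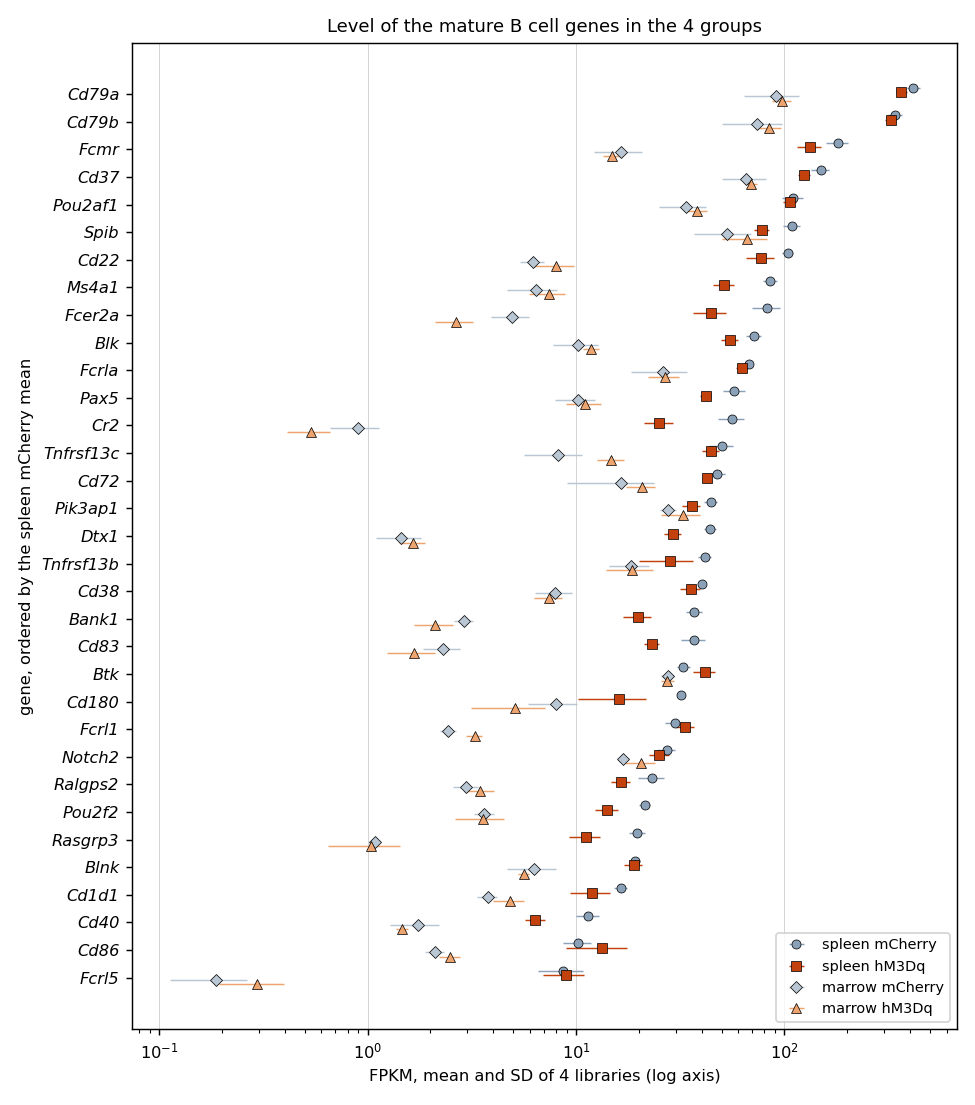
Level of the 33 mature B cell genes in each of the 4 groups. Points are group means and bars SDs over 4 libraries, in FPKM on a log axis; the spleen means lie above the marrow means, by the widest margin for Cr2 and by narrow ones for Btk, Notch2 and Pik3ap1.

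Between the 2 virus groups of the spleen, 42.4% of the members (14 of 33) were called lower in hM3Dq, where 4.57% of the 17076 genes tested were, and 1 of 33 was called higher, where 3.48% were (8.05% in either direction). The members' median log2 change was -0.47 against -0.02 over all genes tested, and 29 of the 33 lay below 0. The 4 hM3Dq libraries lay wholly below the 4 mCherry libraries in 18 members (8.92% of all genes) and wholly above in 1 (9.35%). The summed FPKM of the 33 genes was 2278 to 2659 with mCherry and 1824 to 2039 with hM3Dq. In marrow the same sum was 445 to 690 with mCherry and 517 to 686 with hM3Dq, and the groups overlapped.

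**Figure D2:**
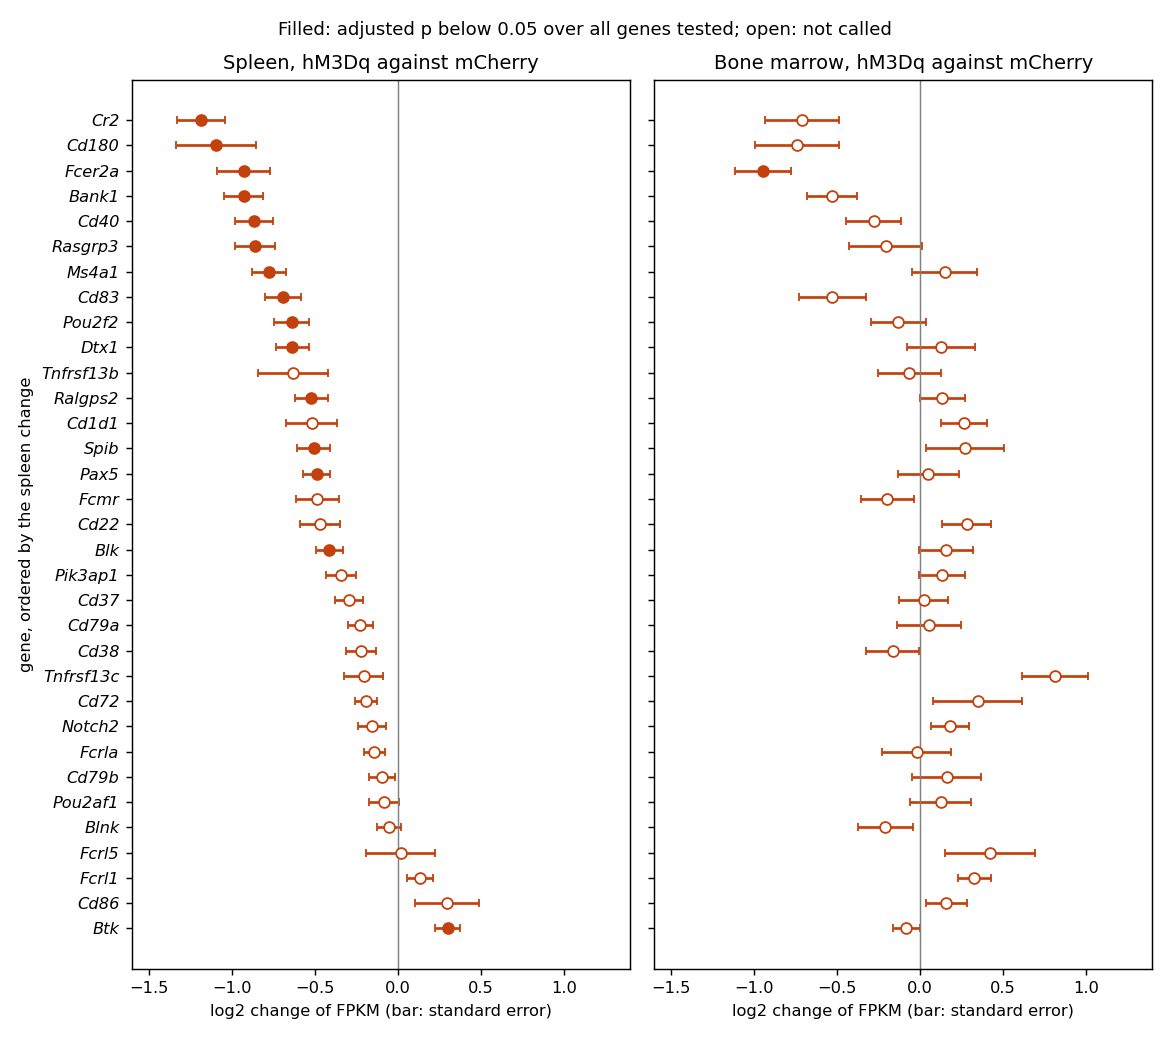
Log2 change of each gene, hM3Dq minus mCherry, in spleen and bone marrow, with SE bars. Filled points have an adjusted p under 0.05 (limma): 14 genes to the left of 0 and Btk to the right in spleen, and Fcer2a in marrow.

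The CD79 chains carry the signal of the receptor into the cell, and neither was called. Cd79a (ENSMUSG00000003379) had spleen FPKM of 387, 394, 430.3 and 452 with mCherry and 342, 391, 369.6 and 353 with hM3Dq. These values overlapped between the groups, and the log2 change was -0.22 ± 0.08 (95% interval -0.40 to -0.05, adjusted p = 0.109). Cd79b (ENSMUSG00000040592) had spleen FPKM of 320.1, 325, 334 and 379 with mCherry and 326, 343, 333 and 297 with hM3Dq, again overlapping. Its log2 change was -0.10 ± 0.08 (95% interval -0.27 to 0.08, adjusted p = 0.467).

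Of the 7 kinase, adaptor and exchange factor genes, 4 fell and 1 rose in the spleen of hM3Dq mice. Bank1 (ENSMUSG00000037922, chromosome 3, 136053363 to 136326066 on GRCm38) encodes a scaffold that links the receptor to its kinases and to calcium release. Its spleen FPKM was 35.5, 33.2, 38.0 and 40.6 with mCherry and 23.3, 19.9, 20.4 and 15.9 with hM3Dq. The highest hM3Dq library lay under the lowest mCherry library, and the change of -0.93 ± 0.12 had an adjusted p of 0.00599. Rasgrp3, an exchange factor that switches on Ras and Rap proteins, had FPKM of 21.9, 19.2, 17.8 and 19.9 with mCherry and 13.9, 10.8, 10.3 and 9.61 with hM3Dq. The groups did not overlap and the change was -0.86 ± 0.12 (adjusted p = 0.00820). Ralgps2, an exchange factor for Ral proteins, stood at 21.1, 19.9, 24.3 and 27.2 with mCherry and 16.3, 18.7, 15.7 and 14.9 with hM3Dq, without overlap and with a change of -0.52 ± 0.10 (adjusted p = 0.0201). Blk, a Src-family kinase of B cells, stood at 70.6, 67.7, 66.8 and 79.3 with mCherry and 53.5, 54.8, 61.3 and 49.3 with hM3Dq, also without overlap (-0.41 ± 0.08, adjusted p = 0.0229). The calls of Ralgps2 and Blk were lost without some single libraries (hM3Dq 7 or 8 or mCherry 3 for Ralgps2; hM3Dq 8 or mCherry 1, 3 or 4 for Blk), with adjusted p up to 0.0654 and 0.0733.

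Btk encodes the kinase downstream of the receptor that activates phospholipase C gamma, and is also expressed in myeloid cells. It was the only member called higher, with FPKM of 32.5, 29.8, 33.3 and 35.4 with mCherry and 37.2, 48.9, 41.0 and 38.6 with hM3Dq. All 4 hM3Dq libraries lay above all 4 mCherry libraries, led by replicate 6, and the change was 0.30 ± 0.08 (adjusted p = 0.0467). The call held in 1 of the 8 fits that left out a library, the one without hM3Dq replicate 5, was lost without replicate 6, the library low in haemoglobin reads, and held in 4 of 10 other settings, both other scalings being among those without a call, with adjusted p from 0.0238 to 0.116. The neutrophil genes, a myeloid list of 12, summed to 1790 to 4185 FPKM in the mCherry spleen and 2323 to 5464 in the hM3Dq spleen, with 0 of the 12 called, 10 above 0 and a median change of 0.43, and the 12 macrophage and monocyte genes to 884 to 1224 and 754 to 1071, with 2 higher and 1 lower; their part in the Btk value was not tested. The adaptor Blnk was at 19.1 ± 1.12 and 18.9 ± 1.82 FPKM (-0.05 ± 0.07, 95% interval -0.21 to 0.11), and the phosphoinositide 3-kinase adaptor Pik3ap1 at 44.3 ± 3.30 and 35.8 ± 3.51 (-0.34 ± 0.09, adjusted p = 0.0533); neither was called.

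Among the 8 genes for coreceptors, inhibitory receptors and the Fc receptor family, 2 fell, Cr2 and Fcer2a. Cr2 (ENSMUSG00000026616, chromosome 1, 195136811 to 195176716 on GRCm38) encodes CD21, and in the mouse the same gene also gives CD35 by splicing, which a gene-level FPKM does not resolve. Its spleen FPKM was 61.7, 45.9, 52.8 and 62.7 with mCherry and 27.0, 20.8, 29.7 and 23.0 with hM3Dq. No hM3Dq library reached the lowest mCherry library, and the change of -1.18 ± 0.14 (2.27-fold lower, adjusted p = 0.00535) was the largest of the 33. Fcer2a (ENSMUSG00000005540, chromosome 8, 3681737 to 3694175) encodes CD23, the low-affinity IgE receptor. It had FPKM of 76.0, 69.3, 86.0 and 99.1 with mCherry and 54.7, 35.7, 46.2 and 41.4 with hM3Dq, again without overlap (-0.93 ± 0.16, adjusted p = 0.0143). Both calls held in all 8 fits that left out a library and in the 10 other settings tried. The highest adjusted p was 0.0263 for Cr2 and 0.04997 for Fcer2a, whose call thus held by a narrow margin.

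The other 6 genes of that class did not pass the test. Cd22, the sialic acid-binding inhibitory receptor, had FPKM of 104, 97.8, 99.9 and 113 with mCherry and 91.9, 67.2, 82.6 and 67.2 with hM3Dq. Fcmr, the Fc receptor for IgM, had 165, 163, 185 and 209 with mCherry and 155, 113, 134 and 127 with hM3Dq. In both the groups were separate, but the changes of -0.47 ± 0.12 and -0.48 ± 0.13 had adjusted p of 0.0522 and 0.0553. Exons of Cd22 overlap those of Gm29439 on the opposite strand, which was listed at up to 195.5 FPKM; the strand setting of the counting is not given in the sources used here, so reads of the pair cannot be told apart. The inhibitory receptor Cd72 (-0.19, 95% interval -0.35 to -0.04), the intracellular Fc receptor-like Fcrla (-0.14, -0.29 to 0.01), Fcrl1 (0.13, -0.04 to 0.31) and Fcrl5 (0.02, -0.45 to 0.49) overlapped between groups in FPKM. Exons of Cd72 overlap Tesk1 on the opposite strand, with the same limit.

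**Figure D3:**
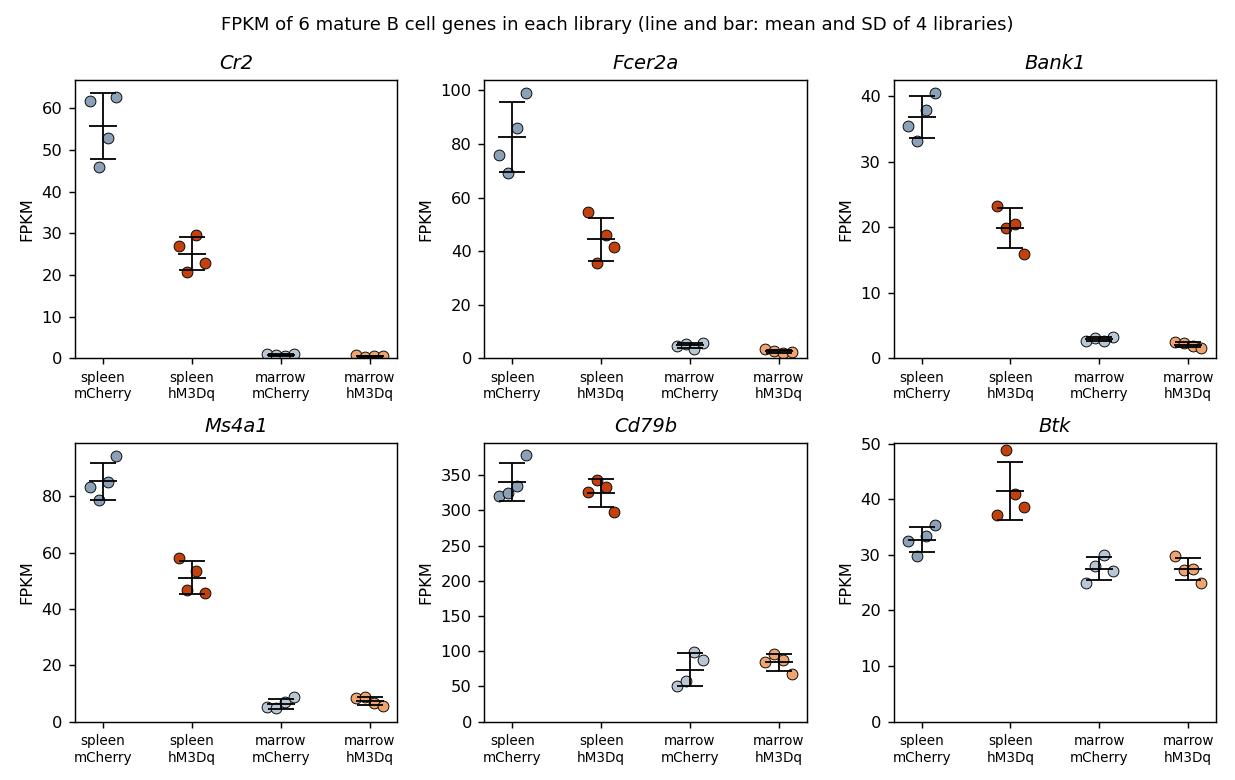
FPKM of Cr2, Fcer2a, Bank1, Ms4a1, Cd79b and Btk in each library of the 4 groups, with the mean and SD as bars. In spleen the hM3Dq points of Cr2, Fcer2a, Bank1 and Ms4a1 lie under all mCherry points, those of Cd79b overlap them and those of Btk lie above them.

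Other surface proteins gave 2 lower genes of 5. Ms4a1 (ENSMUSG00000024673, chromosome 19, 11249675 to 11266241) encodes CD20, in humans the target of antibodies that deplete B cells. Its spleen FPKM was 83.1, 78.6, 85.1 and 94.3 with mCherry and 58.2, 46.8, 53.6 and 45.7 with hM3Dq. The groups were separate by a wide margin and the change was -0.78 ± 0.10 (adjusted p = 0.00664). Cd180, which encodes RP105, a relative of the Toll-like receptors on B cells and some myeloid cells, stood at 31.9, 30.1, 32.0 and 33.8 with mCherry and 23.6, 10.01, 16.7 and 13.7 with hM3Dq. The hM3Dq libraries spread over more than the mCherry ones, from replicate 6 at the bottom to replicate 5 at the top, and the change was -1.09 ± 0.24 (adjusted p = 0.0307). Its call was kept in 2 of the 8 fits that left out a library; it was lost without hM3Dq 7 or 8 or any 1 mCherry library, and with no filter, with adjusted p up to 0.0870, and was kept without replicate 6. Exons of Cd180 overlap Mast4 on the opposite strand, a gene at no more than 1.89 FPKM.

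Not called were Cd37, a tetraspanin of lymphocytes (149 ± 14.9 and 124 ± 8.77 FPKM, change -0.29 ± 0.08, adjusted p = 0.0698), and Cd38, an NAD-consuming ectoenzyme (40.2 ± 1.89 and 35.4 ± 4.04, change -0.22 ± 0.09, adjusted p = 0.171). Cd1d1, which presents lipids to NKT cells and is high on marginal zone B cells, had FPKM of 17.6, 15.5, 15.3 and 17.3 with mCherry and 12.4, 12.9, 14.2 and 8.16 with hM3Dq. The groups were separate, with a change of -0.52 ± 0.15 and an adjusted p of 0.0745. Reads of Cd1d1 are uncertain because its paralog Cd1d2 is nearly identical. Cd37 shares exon sequence with Tead2 on the opposite strand, a gene at no more than 1.33 FPKM.

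Of the 5 costimulation and survival receptor genes, 2 fell. Cd40, the receptor for T cell help, had spleen FPKM of 10.5, 10.5, 11.3 and 13.5 with mCherry and 6.48, 5.67, 7.29 and 6.06 with hM3Dq. The groups did not overlap and the change was -0.87 ± 0.12 (1.82-fold lower, adjusted p = 0.00696). Cd83, a surface protein of activated B cells and dendritic cells that stabilises MHC class II, was at 36.5, 43.4, 33.5 and 33.4 with mCherry and 25.5, 23.0, 23.2 and 20.8 with hM3Dq, also without overlap (-0.69 ± 0.11, adjusted p = 0.0115). The BAFF receptor gene Tnfrsf13c was not called, at 41.7, 48.8, 53.4 and 56.6 with mCherry and 48.7, 41.2, 47.2 and 40.4 with hM3Dq with overlap (-0.20 ± 0.12, 95% interval -0.47 to 0.06). Tnfrsf13b, which encodes TACI, stood at 39.8, 38.3, 42.8 and 44.7 with mCherry and 34.6, 18.9, 35.8 and 23.6 with hM3Dq; the groups were separate, but replicates 6 and 8 lay far below 5 and 7 and the change of -0.63 ± 0.21 had an adjusted p of 0.102. Cd86, a ligand of CD28, lay at 8.72, 10.3, 12.4 and 9.49 with mCherry and 9.68, 19.5, 11.1 and 12.8 with hM3Dq, with replicate 6 highest and an interval of -0.14 to 0.74 around 0.30. The dendritic list of 10 genes, cells that also carry Cd40, Cd83 and Cd86, had 1 gene higher and 2 lower in spleen and summed to 71.9 to 76.3 FPKM with mCherry and 60.7 to 72.1 with hM3Dq; its part in these values was not tested.

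Of the 4 transcription regulators 3 fell. Pax5, the factor that holds B cell identity, had spleen FPKM of 52.7, 51.4, 60.3 and 65.8 with mCherry and 42.5, 45.1, 40.6 and 38.9 with hM3Dq. There was no overlap and the change was -0.49 ± 0.08 (adjusted p = 0.0132). Pou2f2, which encodes the octamer-binding factor OCT2, was at 19.9, 20.8, 22.2 and 22.7 with mCherry and 16.6, 13.4, 13.9 and 12.4 with hM3Dq, without overlap (-0.64 ± 0.10, adjusted p = 0.0121). Spib, an Ets factor of B cells and plasmacytoid dendritic cells, was at 100.5, 99.4, 115 and 119 with mCherry and 84.9, 70.8, 81.9 and 74.9 with hM3Dq, without overlap (-0.50 ± 0.10, adjusted p = 0.0225); its call was lost without hM3Dq 8, mCherry 3 or mCherry 4 and in 1 fit of all 16 libraries, with adjusted p up to 0.129. Pax5 kept its call in all 8 fits that left out a library and lost it in the fit of all 16 libraries (adjusted p = 0.0608). Pou2af1, the coactivator that joins OCT2 at octamer sites, was not called, at 119.9, 112, 91.5 and 115 with mCherry and 99.6, 109.6, 114 and 99.3 with hM3Dq with overlap (-0.08 ± 0.09, 95% interval -0.29 to 0.12). Exons of Pax5 overlap 5730488B01Rik and Gm12462 on the opposite strand, and Pou2f2 holds Mir6537.

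The 2 Notch genes differed in their result. Dtx1, a Deltex protein that is a Notch target of marginal zone B cells, had spleen FPKM of 44.8, 47.0, 44.0 and 40.4 with mCherry and 32.8, 26.9, 29.1 and 27.4 with hM3Dq. The groups were separate and the change was -0.63 ± 0.10 (1.55-fold lower, adjusted p = 0.0103). The receptor gene Notch2 lay at 25.5, 24.5, 28.4 and 30.5 with mCherry and 24.2, 28.7, 22.0 and 25.2 with hM3Dq, with overlap and a change of -0.16 ± 0.09 (95% interval -0.35 to 0.04, adjusted p = 0.284); some of its exon sequence is shared with Gm42820 on the same strand. The difference between these changes was not tested. Over the 14 lower members, 9 (Ms4a1, Fcer2a, Cr2, Bank1, Cd83, Cd40, Dtx1, Rasgrp3 and Pou2f2) kept their call in all 8 fits that left out a library and in all 10 other settings.

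**Figure D4:**
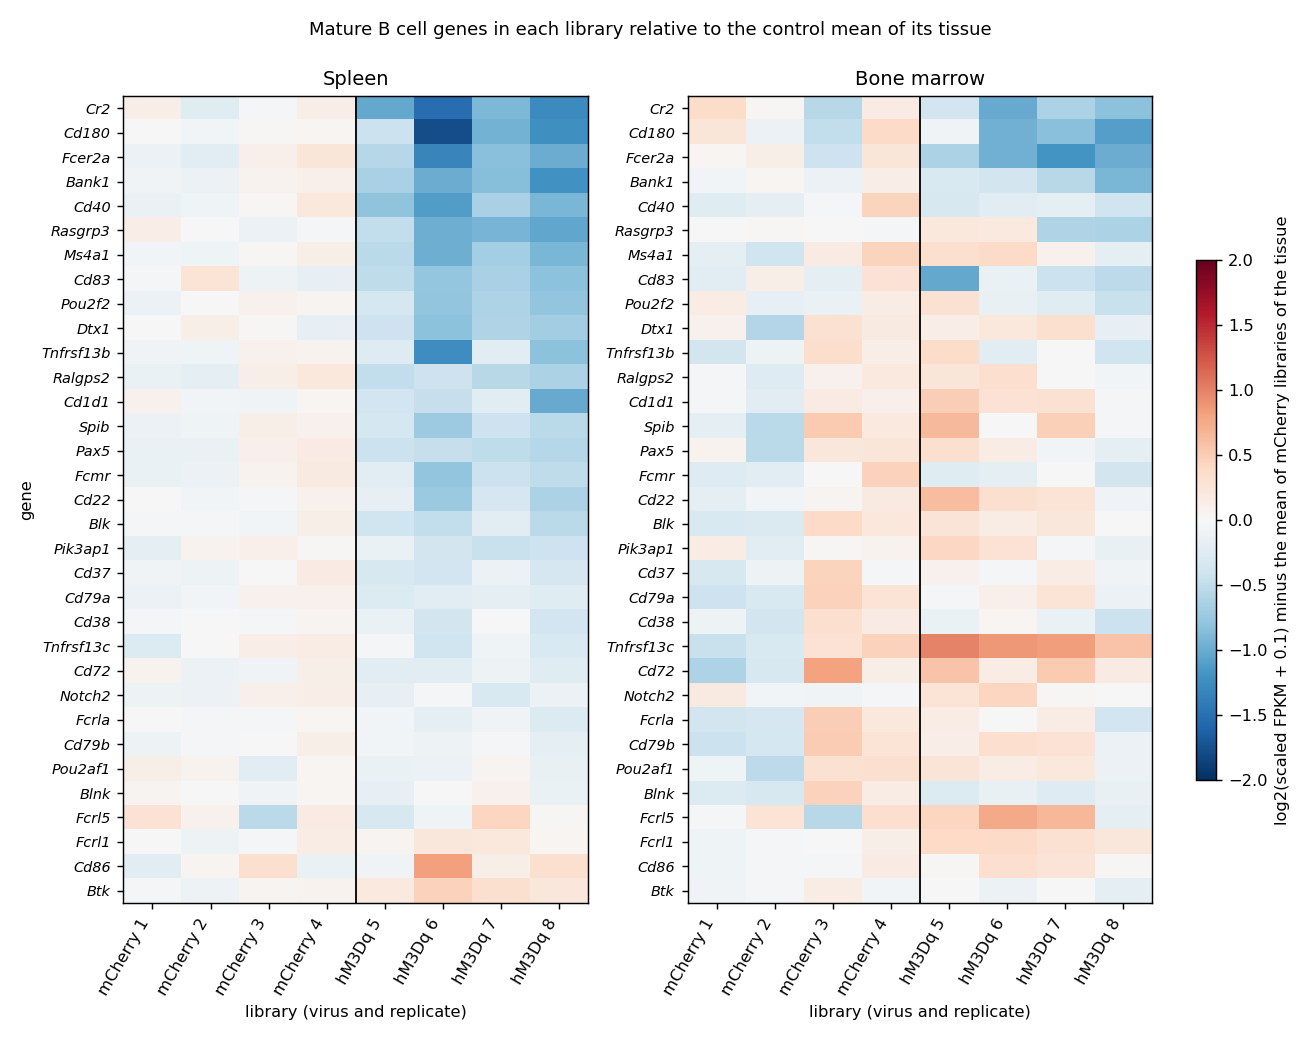
Heat map of the 33 genes in the 8 libraries of each tissue. Colour is log2(scaled FPKM + 0.1) minus the mean of that tissue's mCherry libraries, from -2 to 2; the spleen hM3Dq columns are lower for most genes, and Btk is higher.

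Promoter sequence is shown for 3 members that fell in spleen and 1 that was not called. RefSeq's promoter table (GRCm38.p6) matched 26 of the 33 genes with 31 start sites, and Ms4a1, Cd79b, Blk, Cd83, Cd40, Cd86 and Cd1d1 had no entry. The 250 bases before the start are printed 5' to 3' on the gene's strand for Cr2 and Bank1, with large changes and none of the motifs searched, Rasgrp3, whose change was similar and which has an Ets-type motif in capitals, and Blnk, which was not called and holds the only octamer, in capitals. Cr2 is chr1:195176720-195176969 on the minus strand, Bank1 chr3:136326067-136326316 on the minus strand, Rasgrp3 chr17:75435655-75435904 on the plus strand (the first of its 2 start sites in the table) and Blnk chr19:40994222-40994471 on the minus strand.
Cr2: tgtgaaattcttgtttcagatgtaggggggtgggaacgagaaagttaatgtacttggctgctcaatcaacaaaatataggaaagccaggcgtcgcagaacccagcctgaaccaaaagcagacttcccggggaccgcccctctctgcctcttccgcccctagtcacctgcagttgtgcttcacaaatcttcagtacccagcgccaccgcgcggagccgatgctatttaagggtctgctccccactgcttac
Bank1: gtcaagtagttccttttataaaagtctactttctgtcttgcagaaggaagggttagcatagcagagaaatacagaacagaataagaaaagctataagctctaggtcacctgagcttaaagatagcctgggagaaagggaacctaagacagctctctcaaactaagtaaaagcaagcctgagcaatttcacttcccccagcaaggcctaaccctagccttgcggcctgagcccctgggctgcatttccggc
Rasgrp3: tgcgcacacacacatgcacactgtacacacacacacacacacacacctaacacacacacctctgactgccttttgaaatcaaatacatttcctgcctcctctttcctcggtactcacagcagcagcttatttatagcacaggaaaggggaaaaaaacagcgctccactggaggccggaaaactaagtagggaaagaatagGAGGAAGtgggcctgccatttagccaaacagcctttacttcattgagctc
Blnk: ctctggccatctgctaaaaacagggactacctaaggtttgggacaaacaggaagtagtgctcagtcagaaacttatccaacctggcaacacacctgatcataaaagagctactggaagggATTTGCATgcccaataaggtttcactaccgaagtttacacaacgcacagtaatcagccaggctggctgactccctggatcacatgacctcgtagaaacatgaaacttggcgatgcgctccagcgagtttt
The search covered both strands for the octamer bound by OCT2 (ATGCAAAT, on the other strand ATTTGCAT), an Ets-type site of the SPIB and PU.1 kind (GAGGAAG) and the consensus NF-kB site. Of the 26 matched members, 1 held the octamer (1.81% of 27025 genes in the table), 6 the Ets-type motif (12.0%) and 0 that NF-kB form (0.414%). Of the 10 lower members with a promoter, 2 held the Ets-type motif, Rasgrp3 with its first base at -50 and Dtx1 at -40 from the start, and 0 held the octamer. In Blnk the octamer began at -130.

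In bone marrow 1 of the 33 genes was called lower in hM3Dq, where 1.7% of the 16095 genes tested were, and 0 were called higher, where 3.04% were (4.73% in either direction). The median log2 change of the members was 0.06 against -0.01 over all genes tested, with 19 above 0 and 14 below. Fcer2a was the gene called, with marrow FPKM of 4.78, 5.44, 3.58 and 5.87 with mCherry and 3.39, 2.64, 2.08 and 2.48 with hM3Dq. The hM3Dq libraries all lay under the lowest mCherry library, replicate 3, and the change of -0.94 ± 0.17 (adjusted p = 0.0174) stood beside -0.93 ± 0.16 in spleen. The marrow call was lost without mCherry replicate 2 or 4 and with no filter, with adjusted p up to 0.0573. At an unadjusted p under 0.05, 7 members passed, 5 below 0 and 2 above, where 11.6% and 12.2% of all genes did (23.9% together).

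No other member passed the adjusted test in marrow. Tnfrsf13c had marrow FPKM of 5.52, 6.63, 9.48 and 11.04 with mCherry and 17.2, 15.5, 14.2 and 12.2 with hM3Dq. All 4 hM3Dq libraries lay above all 4 mCherry libraries, and the change of 0.81 ± 0.20 had an adjusted p of 0.0509, from 0.0120 to 0.128 over all fits tried; it was called in 6 of 10 other settings and in 1 of 8 fits that left out a library, the one without mCherry replicate 4. Bank1 stood at 2.65, 3.06, 2.63 and 3.24 with mCherry and 2.54, 2.40, 1.96 and 1.55 with hM3Dq, with the groups separate and a change of -0.53 ± 0.15 (adjusted p = 0.0780). Cr2 was low in marrow, at 1.09, 0.919, 0.560 and 1.01 with mCherry and 0.709, 0.418, 0.538 and 0.473 with hM3Dq, and the groups overlapped (-0.71 ± 0.22, adjusted p = 0.101). Cd180 gave -0.74 ± 0.25 (adjusted p = 0.122), Cd83 -0.53 ± 0.20 (0.152) and Fcrl1 0.33 ± 0.10 (0.0973). The groups were separate in 2 members below, Fcer2a and Bank1, and in 2 above, Tnfrsf13c and Fcrl1, where 3.81% and 12.2% of all genes were. Cd79a was at 91.1 ± 26.8 and 97.0 ± 10.1 FPKM and Ms4a1 at 6.39 ± 1.75 and 7.40 ± 1.45 with mCherry and hM3Dq, with intervals of -0.37 to 0.49 and -0.29 to 0.59 for the log2 change.

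Whether the hM3Dq effect differed between the tissues was tested in 1 fit of all 16 libraries, and 0 of the 33 members were called, where 0.1% of the 17987 genes tested were (0.0612% with the spleen effect above the marrow effect and 0.0389% below). At an unadjusted p under 0.05, 15 members passed, 14 with the spleen effect below the marrow effect and 1 above, where 5.62% and 3.29% of all genes did (8.91% together); limma-voom on recovered reads also called 0. The largest were Tnfrsf13c at -1.02 ± 0.25 (adjusted p = 0.143) and Ms4a1 at -0.93 ± 0.23 (0.154). Fcer2a had a difference of 0.02 ± 0.24, with a 95% interval of -0.50 to 0.53. A call in spleen alone is therefore not shown to differ from marrow for any of the 33.

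Within a library, each gene was also set against Cd79b, which gives a ratio that does not depend on library scaling. In spleen the ratio was lower in all 4 hM3Dq libraries than in all 4 mCherry libraries for 20 of the 32 other members (4.9% of all genes) and higher for 2, Fcrl1 and Btk (11.8%). The Cr2 to Cd79b ratio was 0.141 to 0.193 with mCherry and 0.0606 to 0.0893 with hM3Dq, and that of Ms4a1 was 0.242 to 0.260 and 0.136 to 0.179. Both genes thus had separate groups. For Cd79a the ratio was 1.19 to 1.29 and 1.05 to 1.19, separate only in the third decimal. In marrow 1 member was lower, Cd38 (2.44% of all genes), and 1 higher, Tnfrsf13c (1.32%), at 0.0956 to 0.127 with mCherry and 0.161 to 0.204 with hM3Dq. Cd79b is itself a member, with a spleen change of -0.10, so its ratios largely repeat the changes given above and are no separate evidence. These ratios are a description without a test.

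Genes of the same pathways outside the 33 were counted in lists. Of 22 other genes of B cell receptor signalling, 3 were higher and 4 lower in the hM3Dq spleen, with a median change of -0.04 against -0.02 over all genes. Inpp5d, the phosphatase SHIP1 (0.74, adjusted p = 0.0229), the inhibitory Fc receptor gene Fcgr2b (0.42) and Pik3r1, a regulatory subunit of phosphoinositide 3-kinase (0.42), rose. Of 16 other transcription factors 3 were lower and 0 higher, namely Ikzf3 (-0.46), Bcl11a (-0.62) and Bcl6 (-0.73), with a list median of -0.10. Of 12 genes of the BAFF and CD40 pathways, Traf1 (-0.56), Traf3 (-0.37) and Nfkb2 (-0.58) were among 4 lower and Birc3 (0.54) was the 1 higher, with a median of -0.01. Of 12 Notch genes tested 1 was lower, Hes1, a Notch target (-0.68), with a median of -0.03. Of 16 other surface genes, 5 were lower and 2 higher with a median of -0.24. Ltb, lymphotoxin beta (-0.75), and Ly6d (-0.73) were among the lower, Napsa (0.60) and the activation marker Cd69 (0.82) the higher. In marrow these 5 lists together gave 3 genes higher, Inpp5d (0.37), Birc3 (0.96) and the IL-4 receptor gene Il4ra (0.58), and 0 lower, of 76 genes tested. The share higher was 3.95%, near the 3.04% of all genes, and 1.7% of all genes were lower. In spleen the 5 lists gave 6 higher and 17 lower of 78, or 7.69% and 21.8%, where 3.48% and 4.57% of all genes were.

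Markers of other cells in the CD45+ gate were summed for the same libraries. The 14 T cell genes gave 450.5 to 636 FPKM in the mCherry spleen and 468 to 512 in the hM3Dq spleen, with 0 called. Early B cell genes (pro- and pre-B, 12 listed and 9 tested) gave 48.3 to 58.8 and 56.0 to 59.1, with 1 called higher, Cd93 (0.64). Vpreb2 was listed at 0 in all spleen libraries of both groups, and Rag1 averaged 0.265 and 0.117 FPKM there. Lef1 held a large part of the spleen sum, at 18.2 ± 3.16 and 21.3 ± 1.56 FPKM. In mCherry mice it was the 1 listed gene called higher in spleen than in marrow, where 11 were lower. The spleen sum is therefore not a measure of early B cells. Plasma cell genes gave 372 to 558 and 484 to 727 in spleen, with 1 of 10 higher, and 273 to 312 against 394 to 520.0 in marrow, where the groups did not overlap and 2 of 10 were higher. The marrow list had a median log2 change of 0.04, with 6 genes above 0 and 4 below. Jchain, the joining chain of secreted immunoglobulin, named here after its values were seen, went from 191 ± 21.2 to 331 ± 49.2 FPKM in marrow. The 9 plasma cell genes without it overlapped, at 97.0 to 104 and 98.2 to 117. Prdm1, also named after its values were seen, was the other gene called higher in marrow (0.76, limma adjusted p = 0.0261). At 0.526 ± 0.086 and 1.00 ± 0.10 FPKM there, it weighed little in the sum. It was also the 1 plasma cell gene called in spleen (0.52, limma adjusted p = 0.0448). Neutrophil genes in marrow gave 46533 to 64237 with mCherry and 47142 to 65067 with hM3Dq, with 0 of 12 called. The 12 macrophage and monocyte genes gave 4297 to 5320.4 in the mCherry marrow and 2820 to 4245 in the hM3Dq marrow, without overlap. Of these genes 1 was higher and 0 lower, with a median change of -0.13. Most of the sum was Lyz2, named here after its values were seen, at 4550 ± 425 and 3318 ± 600 FPKM. The sum without Lyz2 was not taken, so the gap is not shown for the list as a whole. Dendritic genes in marrow gave 78.2 to 104 and 65.7 to 80.3, with 1 higher and 2 lower of 9 tested, 8 of the 9 below 0 and a median change of -0.52. Erythroid genes spread widely, at 7773 to 23397 and 1841 to 18374 in spleen and 18953 to 39263 and 5491 to 32996 in marrow. In each tissue 0 of 11 were called, all 11 lay below 0, and the median change was -0.71 in spleen and -0.92 in marrow. The T cell genes in marrow gave 34.0 to 39.0 and 31.5 to 37.9 and the early B cell genes 115 to 191 and 150.3 to 181, with 0 called in either. A fit with the haemoglobin share as a covariate called 14 members lower in spleen and 0 higher. Over all 17076 genes tested it called 495 lower and 365 higher, against 781 and 594 without the covariate. The part of any of these cells, erythroid cells included, in the changes of the 33 genes was not tested.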

How the data were processed

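Poly(A) RNA of CD45+ cells was sequenced in 16 libraries, 4 per tissue and virus. The authors deposited 1 FPKM table per library, a unit named in the file headers. Per the submitters' processing notes, CASAVA 1.9, STAR 2.6.1a, featureCounts, edgeR 3.28.1 and GRCm38 were used; which annotation release and strand setting served the counting is not given in the sources used here.

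FPKM multiplied by the GENCODE M21 exon length gave whole reads, within 0.01, for 27896 of 31954 genes above 0 (87.3%), and another length was used for 4029. The recovered reads served the filter (10 reads in 4 libraries), composition scaling (TMM, trims of 30% and 5%) and depth (11.34 to 16.96 megafragments, at which 1 read in a 2 kb gene gives 0.0295 to 0.0441 FPKM). The deposited FPKM values were scaled, logged with a pseudocount of 0.1 and tested in limma 3.58.1 (R 4.3.3) with a trended spread and Benjamini-Hochberg adjustment over all genes tested. Each virus comparison used the 8 libraries of its tissue, the tissue difference of effects all 16, and spleen against marrow the 8 mCherry libraries, which the virus comparisons also use. The script was tested on simulated data.

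The members and lists were chosen with earlier results of these data known. All members are named; of each pathway list at most 4 called genes per comparison, by smallest p, with 1 such gene not reported here; other cell types appear as counts and sums. Alternatives changed the pseudocount, filter, scaling, spread, test, covariate and libraries. p-values measure the spread between these libraries.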

Additional observations from a re-analysis of the deposited data

Results flagged for a closer look

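Among 132 sets of 4 libraries (33 genes in 4 groups), 3 held a library far from the other 3, by a gap that, as a share of the group's range, passed Dixon's 95% critical value for 4 samples. Chance flags about 1 in 20 such sets. Fcrla, the intracellular Fc receptor-like gene, was at 56.3 FPKM in spleen hM3Dq replicate 8 and at 64.6 to 65.0 in the other 3. Cd180 was at 8.09 FPKM in marrow hM3Dq replicate 5 and at 3.75 to 4.38 in the other 3. Pik3ap1 was at 39.4 FPKM in spleen mCherry replicate 1 and at 45.4 to 46.4 in the other 3.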

How the results depend on the processing

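In spleen, the number of members called (15) was 13 to 20 over the 10 other settings and 10 to 18 with 1 library left out. The lowest count came without hM3Dq replicate 8 or mCherry replicate 3. Btk was the only member called higher in any of these fits. Over all genes tested in spleen, 594 were higher and 781 lower in the main fit. These counts were 200 and 218 without hM3Dq replicate 8, 297 and 319 without mCherry replicate 3, and 766 and 984 with limma-voom. In marrow the main count of 1 became 2 with a pseudocount of 1, 0 with no filter, 2 with no composition scaling, 2 with upper quartile scaling, 2 with a robust spread, 3 with limma-voom, 5 in 1 fit of all 16 libraries and 2 with the haemoglobin share as a covariate, and was 0 to 2 with 1 library left out (0 without mCherry replicate 2, 2 without hM3Dq replicate 5 or mCherry replicate 3). Over all genes tested in marrow, 489 were higher and 273 lower in the main fit, and 682 and 415 with limma-voom. The fit of all 16 libraries called 980 higher and 605 lower of 17987 genes. Its 5 members were Fcer2a, Cr2 and Bank1, which were lower, and Fcrl1 and Tnfrsf13c, which were higher. The 3 with limma-voom were Fcer2a and Bank1, lower, and Tnfrsf13c, higher. The causes of these shifts in count were not tested.

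Replicate numbers are not shared between the virus groups, so no block could be fitted within a tissue. Same-numbered marrow and spleen libraries deviated together with correlations of 0.05, 0.06, 0.05 and 0.16 for mCherry and 0.05, 0.46, 0.33 and 0.23 for hM3Dq, against -0.40 to 0.20 for different numbers. Of the 8 marrow libraries, 7 correlated best with the spleen library of their own number, a hint of pairing from the data. The labels state no pairing and 4 of the 8 correlations were not over 0.1, the level set for pairing, so the fits reported have no block. With a replicate block, 32 members were called between tissues and 0 in the difference of effects, as without it.

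Signs turned for log2 changes near 0. In marrow, Pax5 was -0.039 with the haemoglobin covariate, and Fcrla was 0.057 and Tnfrsf13b 0.013 with no composition scaling. For the difference of effects, Fcer2a was -0.14 with a pseudocount of 1 and -0.029 with no composition scaling. Between tissues, Btk was 0.25 with no composition scaling and 0.0015 with upper quartile scaling. With 1 library left out, the range crossed 0 in spleen for Fcrl5 (-0.16 to 0.13). In marrow it did for Cd79a (-0.080 to 0.21), Pax5 (-0.13 to 0.13), Cd37 (-0.081 to 0.17), Pou2af1 (-0.052 to 0.23), Fcrla (-0.14 to 0.15), Tnfrsf13b (-0.21 to 0.052) and Dtx1 (-0.069 to 0.23). For the difference of effects it did for Fcer2a (-0.10 to 0.15), Fcrla (-0.29 to 0.0014), Cd86 (-0.036 to 0.26) and Cd38 (-0.16 to 0.065), and between tissues for Btk (-0.057 to 0.015).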
